A study of Mus musculus with 13 samples.

Results

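The complement and coagulation genes were followed in mouse liver as 38 genes, chosen by their names in the annotation of the arrays, of 19534 genes tested. All 38 were measured by a probe well above background on all 13 arrays. Complement is a cascade of plasma proteins that marks and lyses microbes, and coagulation is a cascade of plasma proteases that ends in a fibrin clot. Hepatocytes make most of the proteins of both cascades and secrete them into the blood. Many of these genes are part of the acute phase response, in which inflammatory cytokines change the output of the liver.

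Livers of female C57BL6 mice, 12 weeks of age, were hybridized to one-colour 4x44K arrays. The labels name 2 diets. A high-fat diet labelled HFHS, whose composition is not given, was fed with vehicle (HFHS vehicle, 5 arrays). A standard diet labelled ST was fed with vehicle (ST vehicle, 3 arrays) or with a mixture of 4 pollutants that the labels do not name (ST pollutants, 5 arrays). The design text can be read in more than 1 way on which diet carried the mixture, and the sample labels, which all put it on ST, were followed. The series title sets a low-dose mixture beside a high-fat challenge to look for shared and distinct effects on metabolism, and the arrays carry the label of separate biological replicates. Levels are given as the log2 signal of a probe above the 75th percentile of all probes on its array. Such a level can be compared between arrays for 1 gene but not between genes.

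Signal at the 75th percentile ranged from 815 to 1416 intensity units across the arrays, with 62.8% to 69.5% of probes well above background. The number of arrays limits the precision. Slide 1, which held 1 array of each group, was separated from the other slides along the leading principal component (22.8% of variance). All 19 hepatocyte markers on the array, among them albumin (Alb), were above background on every array. On HFHS 16 of these 19 had a log2 fold change below 0, with a median of -0.10, and 13 of 19 with pollutants, with a median of -0.02. Of the 19, 0 passed the test in either comparison (1 and 1 unadjusted). Fewer cells of a type and less RNA per cell cannot be told apart in such bulk samples.

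Several arrays stood apart. ST vehicle replicate 3 was the only array with Y-linked Ddx3y (-3.17) and Eif2s3y (-2.79) above background, although every sample is labelled female. On the other arrays the values lay at or below -5.04 for Ddx3y and -6.37 for Eif2s3y. Y-linked Kdm5d and Uty were above background on 0 arrays. On ST vehicle replicate 3 Kdm5d was at -5.93, against at most -6.54 elsewhere. Both Uty probes there (-7.10 and -6.85) lay within the range of the other arrays. A probe for the X-inactivation transcript Xist was at 0.44 on that array, within the -0.27 to 0.69 of the 13 arrays. The mean of 16 male-biased liver genes was also highest there (4.25), followed by ST pollutants replicate 1 (3.32), with 2.56 to 3.04 on the other 11 arrays. HFHS vehicle replicates 3, 4 and 5 carried pancreatic acinar transcripts at a list mean of 2.90 to 6.29, against -3.42 to -2.03 on the other arrays. The leading results against ST vehicle are therefore also given without ST vehicle replicate 3.

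None of the 38 genes passed the test in any of the 3 comparisons. The test was a limma model of the 13 arrays, p-values were adjusted by Benjamini-Hochberg across the 19534 genes, and an adjusted p under 0.05 counted as a call. For HFHS vehicle against ST vehicle 0 of 38 were called, with 0.686% of all genes called (0.235% higher and 0.45% lower). Without adjustment 6 were under 0.05 (15.8%, against 12.1% of all genes), all of them lower, where 7.09% of all genes were lower and 4.97% higher. For ST pollutants against ST vehicle 0 of 38 were called, with 0.973% of all genes called (0.538% higher and 0.435% lower). Without adjustment 8 were under 0.05 (21.1%, against 12.2% of all genes), 7 lower and 1 higher, where 6.26% of all genes were lower and 5.89% higher. For HFHS vehicle against ST pollutants 0 of 38 were called, with 3.87% of all genes called (1.57% higher and 2.3% lower). Without adjustment 6 were under 0.05 (15.8%, against 18.3% of all genes), 4 lower and 2 higher, where 10.6% of all genes were lower and 7.64% higher. The first 2 comparisons share the ST vehicle arrays.

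These unadjusted counts moved with the processing. On HFHS the count was 3 of 38 under quantile normalization (12% of all genes) and 2 of 38 in the authors' table (10.1% of all genes). It rose to 8 of 38 under normexp background correction (9.09% of all genes) and to 8 of 38 without HFHS vehicle replicate 4 (11.7%). With pollutants it was 1 of 38 under normexp background correction (5.75% of all genes), 1 of 38 with the array median subtracted (8.53%) and 4 of 38 with only the compared groups fitted (10.5%). It was 3 and 4 of 38 without ST vehicle replicate 2 or 3 (10.8% and 9.65% of all genes). Without pollutant replicate 1, 2, 4 or 5 it was 14, 4, 3 and 5 of 38 (12.6%, 12.6%, 10.8% and 10.9% of all genes). Without slide 1 it was 13 of 38 (10.6% of all genes). For HFHS against pollutants it was 10 under quantile normalization (18.3% of all genes) and 11 without pollutant replicate 1 (17.8%).

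The fold changes were small and mostly below 0, as they were for the hepatocyte markers on HFHS, whose median was the same. The part of that in the values of the 38 genes was not tested. The log2 fold change was below 0 for 32 of 38 genes on HFHS (54.5% of all genes), with a median of -0.10 against -0.02 for all genes. This fell to 25 of 38 under quantile normalization and 24 of 38 in the authors' table, each with a median of -0.03 against 0.00 for all genes, and was 37 of 38 under normexp. With pollutants it was below 0 for 30 of 38 (51.9% of all genes), with a median of -0.08 against -0.01. Without ST vehicle replicate 3, 29 and 26 of the 38 were below 0. For HFHS vehicle against ST pollutants 23 of 38 were below 0 (51.1% of all genes), and this count depended on the scaling, with 12 of 38 under quantile normalization and 31 of 38 under normexp background correction. Normexp also moved the median of all genes, to 0.09 in both comparisons of HFHS vehicle, while the median of the 38 genes was -0.25 against ST vehicle and -0.18 against ST pollutants.

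The intervals bound what could have gone unseen. The 95% interval of the fold change lay within 2-fold either way for 35 of 38 genes on HFHS (85.5% of all genes), for 34 of 38 with pollutants (84.9%) and for 37 of 38 between HFHS and pollutants (89.4%). Within 1.5-fold it lay for 31, 30 and 30 of the 38 genes (61.3%, 60.9% and 66.8% of all genes). The exceptions at 2-fold were Cfd in all 3 comparisons, C8b in both comparisons with ST vehicle, C8a on HFHS, and F11 and C9 with pollutants. The median spread of the 38 genes within a group was an SD of 0.15, against 0.20 for all genes.

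**Figure D1:**
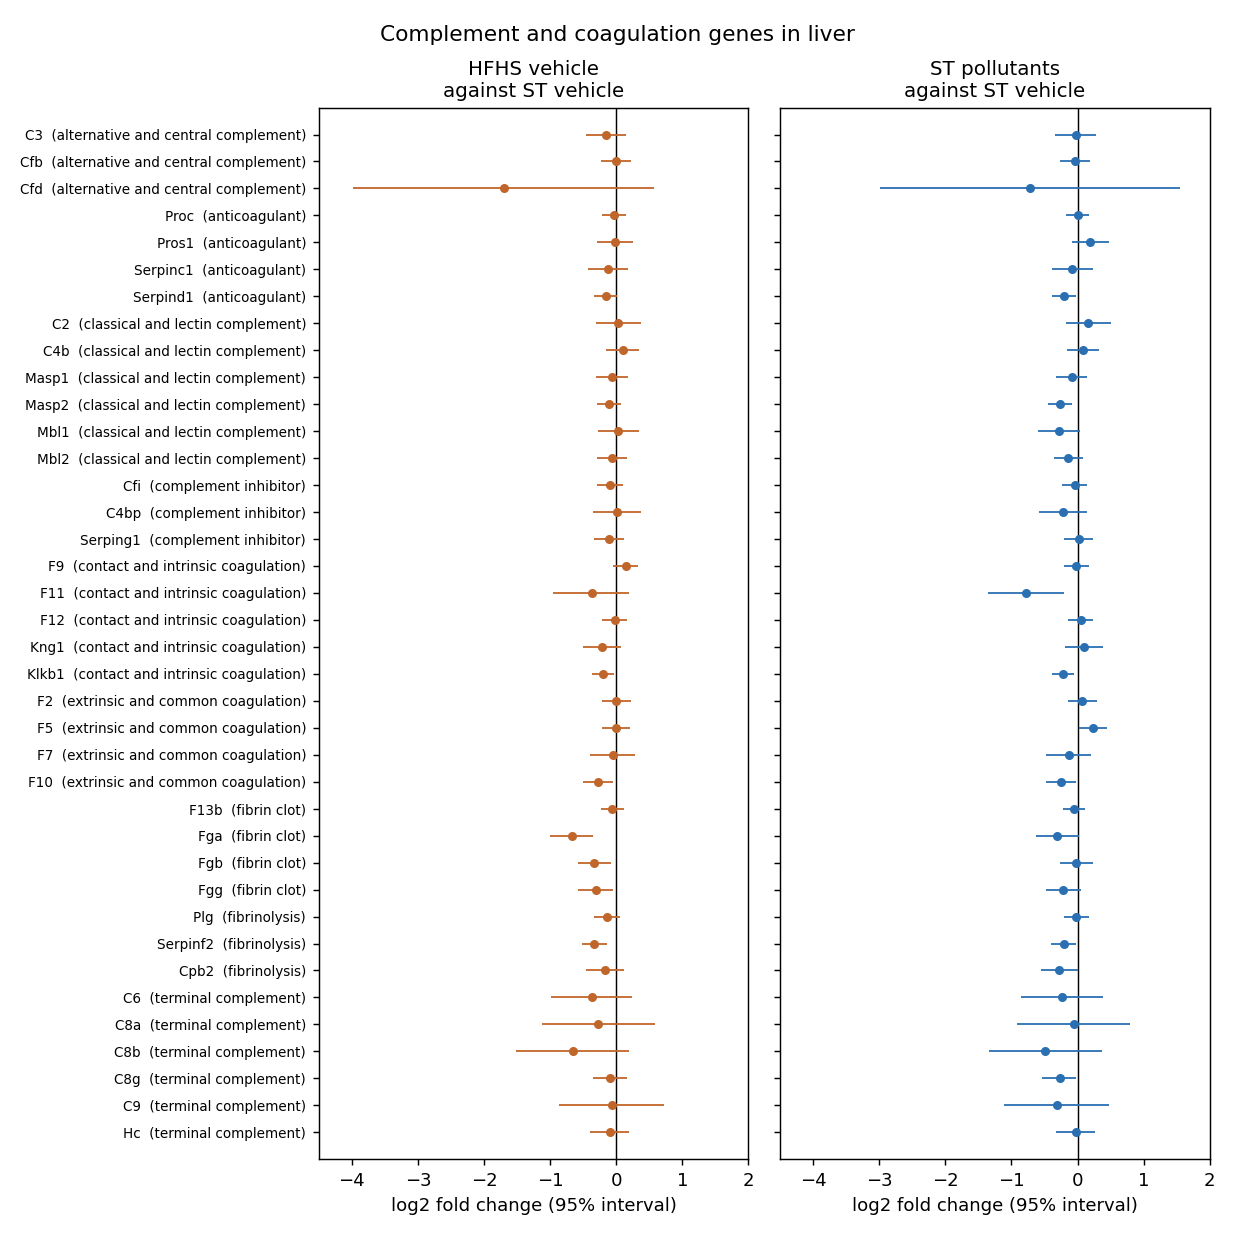
Log2 fold change of each of the 38 genes with its 95% interval, on HFHS (left) and with pollutants (right), both against ST vehicle, grouped by role. Most points lie slightly left of 0, and Cfd, C8a, C8b, C9, C6 and F11 have the widest intervals.

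Fibrinogen, the precursor of the clot, is built from 3 chains encoded by Fga, Fgb and Fgg, which lie side by side on chromosome 3 with no other protein-coding gene between them. Fga was the member with the smallest p of all, and its signal was lower on HFHS without passing the test. It read 4.70, 4.74 and 4.88 in the ST vehicle arrays, 3.81, 4.00, 4.45, 4.18 and 4.05 on HFHS, and 4.78, 4.51, 4.43, 4.17 and 4.44 with pollutants. All 5 HFHS arrays lay below all 3 ST vehicle arrays, while the pollutant arrays overlapped both. On HFHS its log2 fold change was -0.67 ± 0.15 (SE), or 1.59-fold lower, with a limma adjusted p of 0.0678. It was -0.89, -0.74 and -0.83 within slides 1, 2 and 5, and -0.62 without ST vehicle replicate 3 (limma adjusted p = 0.247). Without HFHS vehicle replicate 3 it was -0.76 and passed the test (limma adjusted p = 0.0358). With pollutants the log2 fold change of Fga was -0.31 ± 0.15 (limma adjusted p = 0.444).

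A second Fga probe gave -0.51 ± 0.18 on HFHS and -0.52 ± 0.18 with pollutants. The 2 probes thus differed in how the pollutant arrays placed, and between HFHS and pollutants they gave log2 fold changes of -0.37 and 0.01. The probe used lies at chr3:82835678-82835737 and the other at chr3:82837260-82837319, both on the plus strand of mm9, the build of the array files. Across the 13 arrays the values of the 2 probes correlated at r = 0.61.

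Fgb read 8.51, 8.59 and 8.76 in ST vehicle, 8.09, 8.18, 8.21, 8.49 and 8.50 on HFHS, and 8.57, 8.52, 8.67, 8.49 and 8.76 with pollutants. The HFHS arrays lay below the ST vehicle arrays by a narrow margin, and the pollutant arrays spanned the same range as ST vehicle. Its log2 fold change on HFHS was -0.33 ± 0.11 (limma adjusted p = 0.253), and -0.49 without the 3 HFHS arrays that carried acinar transcripts. Without those arrays 0 of the 38 genes were called on HFHS, and the smallest limma adjusted p was 0.133, for Fga. Of all 19534 genes only 2 were then called higher and 2 lower, so that count says little. Without ST vehicle replicate 3 the log2 fold change of Fgb was -0.26 (limma adjusted p = 0.562). With pollutants it was -0.02 ± 0.11, with a 95% interval from -0.27 to 0.23.

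Fgg read 8.60, 8.37 and 8.64 in ST vehicle, 8.26, 8.02, 8.05, 8.34 and 8.44 on HFHS, and 8.14, 8.36, 8.39, 8.22 and 8.50 with pollutants. The groups overlapped, with ST vehicle replicate 2 inside the range of HFHS. Fgg had log2 fold changes of -0.31 ± 0.12 on HFHS (limma adjusted p = 0.298) and -0.22 ± 0.12 with pollutants (limma adjusted p = 0.546), and -0.26 and -0.17 without ST vehicle replicate 3. F13b, a subunit of the factor that cross-links fibrin, had log2 fold changes of -0.06 ± 0.08 and -0.05 ± 0.08.

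Since the 3 chains form 1 protein, their signals were compared across the 13 arrays. Only pairs of chains were tested, so the values do not show whether a chain followed other members as closely. Fga and Fgb correlated at r = 0.67 and rho = 0.71 (permutation test, adjusted p = 0.0255 and 0.0205 over 6 pairs). Leaving out the 2 arrays farthest from the median of Fga lowered this r to 0.42, so the relation rested largely on those arrays. Fgb and Fgg correlated at r = 0.70 and rho = 0.70 (permutation test, adjusted p = 0.0233 and 0.0205), and at 0.69 without the 2 farthest arrays. Fga and Fgg correlated at r = 0.41 and rho = 0.38 (permutation test, adjusted p = 0.245 and 0.306). With the group and slide means removed, r was 0.45 for Fga and Fgb, 0.39 for Fgb and Fgg and -0.33 for Fga and Fgg. Within arrays other than those of slide 1, r was 0.57, 0.94 and 0.54 for the same pairs.

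The 150 bases before the start of each fibrinogen gene are shown because the chains share a locus, with the letters of liver factor motifs in capitals. They are RefSeq sequences of GRCm38.p6, a build other than that of the probes, at chr3:83026003-83026152 (plus strand), chr3:83049864-83050013 (minus strand) and chr3:83007574-83007723 (plus strand). Capitals mark GTTAAT, the short form of the site of HNF1, a homeodomain factor of liver, and TTGCNNAA, a form of the C/EBP site, each on either strand and not overlapping here.
Fga: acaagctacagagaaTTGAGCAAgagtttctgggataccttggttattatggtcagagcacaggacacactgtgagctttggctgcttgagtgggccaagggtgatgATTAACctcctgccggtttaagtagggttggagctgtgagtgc
Fgb: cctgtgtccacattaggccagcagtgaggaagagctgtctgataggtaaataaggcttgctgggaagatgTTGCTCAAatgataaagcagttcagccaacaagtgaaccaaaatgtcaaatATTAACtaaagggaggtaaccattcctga
Fgg: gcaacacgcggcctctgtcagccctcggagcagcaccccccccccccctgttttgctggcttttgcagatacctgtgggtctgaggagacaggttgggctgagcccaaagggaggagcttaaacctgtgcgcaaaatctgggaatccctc
Fga and Fgb each held both motifs in this stretch, and Fgg held neither. Of the 38 genes 29 had a promoter in the table. The shares of members count genes with a match in any of their promoters, and the shares of all count promoters. In the 250 bases before the start, GTTAAT was found in 7 of 29 (24.1%) against 6.43% of 32851 promoters, in C4bp, C8a, C8b, F13b, Fga, Fgb and Hc. TTGCNNAA was found in 7 of 29 (24.1%, against 9.56%) and the longer C/EBP form TTGCNNCAA in 2 of 29 (6.9%, against 1.74%), C6 and Fga. The STAT motif TTCNNNGAA was found in 6 of 29 (20.7%, against 7.02%), C8a, F9, Fga, Fgb, Masp2 and Pros1. The full HNF1 site, which contains the short form, and the HNF4 form CAAAGTCCA were found in 0 of 29 (against 0.00913% and 0.384%). These are matches of letters and do not show that a factor binds.

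**Figure D2:**
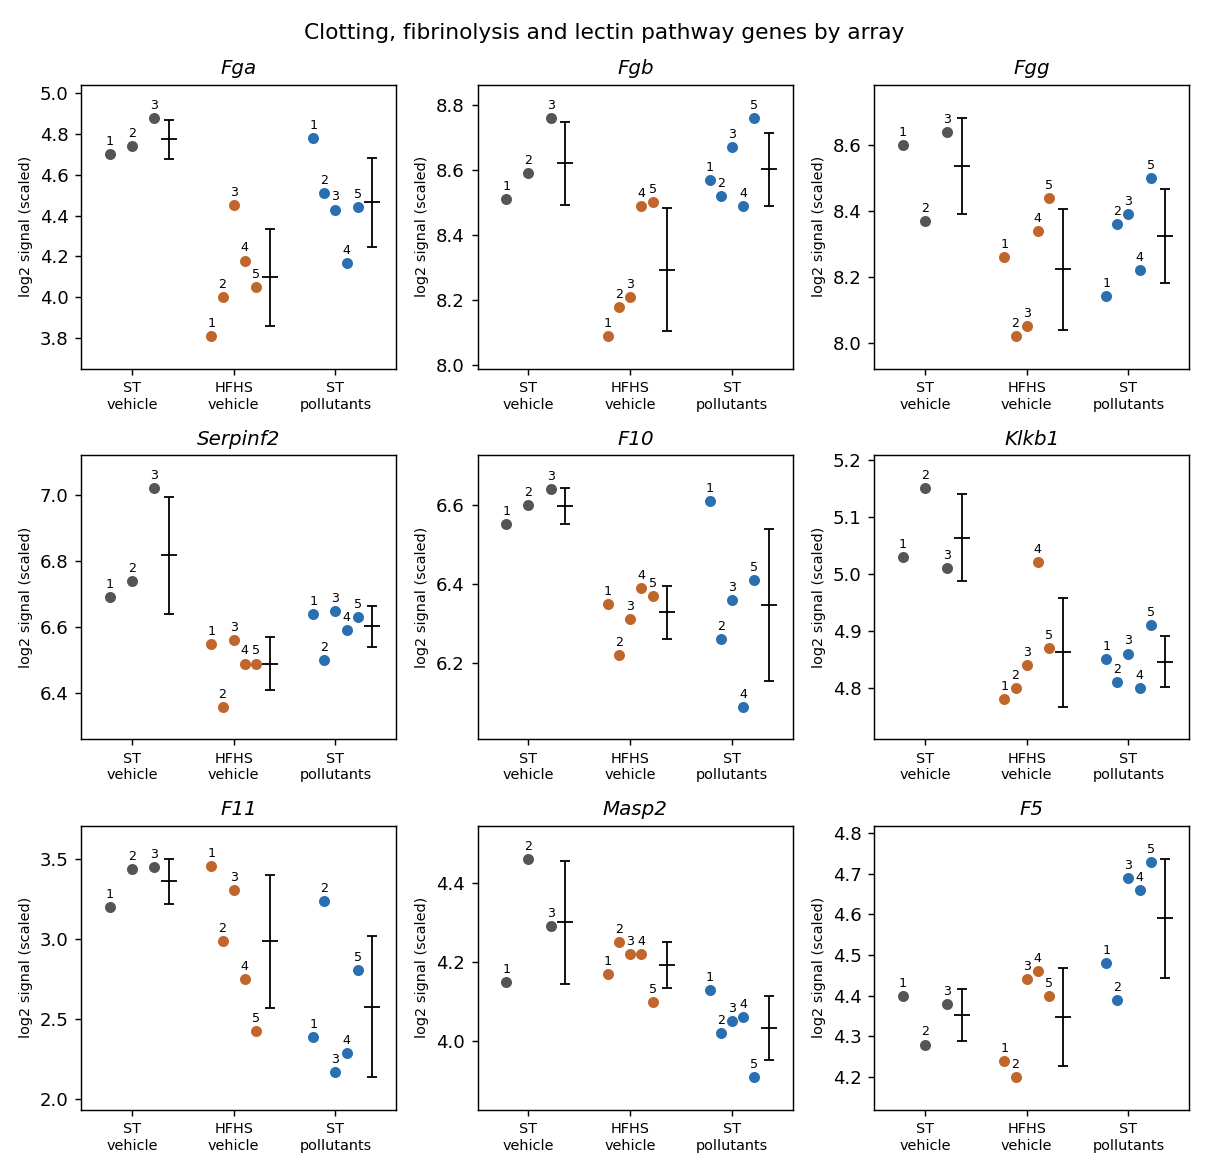
Log2 signal of 9 genes on each array, with the replicate number beside each point and the mean ± SD of the group to its right; each panel has its own scale. Fga, Fgb, Serpinf2 and F10 show all HFHS arrays below all ST vehicle arrays, while F11 shows a wide spread in both treated groups.

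Of the tissue factor and common pathway genes, F10 had lower signals in both treated groups, without passing the test. F10, the protease that activates prothrombin, read 6.55, 6.60 and 6.64 in ST vehicle, 6.35, 6.22, 6.31, 6.39 and 6.37 on HFHS, and 6.61, 6.26, 6.36, 6.09 and 6.41 with pollutants. HFHS and ST vehicle did not overlap, and of the pollutant arrays only replicate 1 reached the ST vehicle range. The log2 fold changes were -0.27 ± 0.10 on HFHS (limma adjusted p = 0.294) and -0.25 ± 0.10 with pollutants (limma adjusted p = 0.332). Leaving out ST vehicle replicate 3 gave -0.25 and -0.23 (limma adjusted p = 0.547 and 0.587).

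F5, the cofactor of F10, was the only member with a higher signal at an unadjusted p under 0.05 against ST vehicle. It read 4.40, 4.28 and 4.38 in ST vehicle, 4.24, 4.44, 4.46 and 4.40 in HFHS replicates 1, 3, 4 and 5, and 4.48, 4.39, 4.69, 4.66 and 4.73 with pollutants. HFHS replicate 2 was the lowest of all arrays, just under replicate 1. Pollutant replicates 3, 4 and 5 lay above every other array. With pollutants its log2 fold change was 0.24 ± 0.10 (limma adjusted p = 0.343), and a second probe gave 0.11 ± 0.11. It was 0.25 without ST vehicle replicate 3 (limma adjusted p = 0.529). HFHS lay below pollutants on each of the 5 slides, by -0.33 to -0.19. Prothrombin (F2) differed from ST vehicle by 0.00 ± 0.10 on HFHS and 0.07 ± 0.10 with pollutants, and F7, which starts the tissue factor pathway, by -0.05 ± 0.16 and -0.13 ± 0.16.

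In the contact and intrinsic pathway, F11 was 1.72-fold lower with pollutants, without passing the test and with a wide spread within the group. F11, which activates factor IX, read 3.20, 3.44 and 3.45 in ST vehicle, 3.46, 2.99, 3.31, 2.75 and 2.43 on HFHS, and 2.39, 3.24, 2.17, 2.29 and 2.81 with pollutants. Pollutant replicate 2 lay within the ST vehicle range and the other 4 pollutant arrays below it. F11 differed by -0.78 ± 0.26 with pollutants (limma adjusted p = 0.223) and -0.37 ± 0.26 on HFHS (limma adjusted p = 0.699). With pollutants it was -0.74 without ST vehicle replicate 3 (limma adjusted p = 0.482). Without pollutant replicate 2 the smallest adjusted p of the members in this comparison was that of F11, at 0.0921 in limma.

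Klkb1 encodes plasma prekallikrein and lies next to F11 on chromosome 8. It read 5.03, 5.15 and 5.01 in ST vehicle, 4.78, 4.80, 4.84, 5.02 and 4.87 on HFHS, and 4.85, 4.81, 4.86, 4.80 and 4.91 with pollutants. All pollutant arrays lay below ST vehicle, and on HFHS only replicate 4 reached its range. The log2 fold changes were -0.20 ± 0.07 on HFHS (limma adjusted p = 0.285) and -0.22 ± 0.07 with pollutants (limma adjusted p = 0.233). These were -0.23 and -0.24 without ST vehicle replicate 3 (limma adjusted p = 0.398 and 0.378). A second probe gave -0.16 ± 0.10 and -0.03 ± 0.10, so with pollutants the 2 probes disagreed.

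F9, the protease that joins factor VIII in activating F10, read 2.87, 2.84 and 2.82 in ST vehicle, 3.00, 2.98, 2.92, 3.01 and 3.02 on HFHS, and 3.03, 2.62, 2.79, 2.92 and 2.77 with pollutants. All HFHS arrays lay above all ST vehicle arrays, by a log2 fold change of 0.14 ± 0.09 (limma adjusted p = 0.638). F9 was the only member whose groups did not overlap in the higher direction on HFHS. F12, the contact factor, differed by -0.02 ± 0.09 and 0.05 ± 0.09, and the kininogen gene Kng1 by -0.22 ± 0.13 and 0.10 ± 0.13, or -0.10 and 0.22 without ST vehicle replicate 3. Between HFHS and pollutants Kng1 differed by -0.32 ± 0.12 (limma adjusted p = 0.156), and a second probe gave -0.15 ± 0.10.

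Counted over all members, the groups did not overlap for 6 of 38 genes on HFHS (9.14% of all genes). They were lower for Fga, Fgb, Serpinf2, F10 and Cpb2 (5.32% of all genes) and higher for F9 (3.81% of all genes). With pollutants they did not overlap for 4 of 38 (8.32% of all genes), lower for Masp2, Klkb1, Serpind1 and Serpinf2 (4.4% of all genes) and higher for none (3.93% of all genes). Between HFHS and pollutants 0 members had groups that did not overlap (6.93% of all genes, 2.74% higher and 4.19% lower). As shares of the members these were 15.8% on HFHS (13.2% lower) and 10.5% with pollutants.

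The fibrinolysis genes held the member with the second smallest p on HFHS. Serpinf2, the inhibitor of plasmin, read 6.69, 6.74 and 7.02 in ST vehicle, 6.55, 6.36, 6.56, 6.49 and 6.49 on HFHS, and 6.64, 6.50, 6.65, 6.59 and 6.63 with pollutants. Both treated groups lay below ST vehicle without overlap, and ST vehicle replicate 3 was the highest array. Serpinf2 differed by -0.33 ± 0.09 on HFHS (limma adjusted p = 0.137) and -0.21 ± 0.09 with pollutants (limma adjusted p = 0.341). Without ST vehicle replicate 3 these were -0.22 (limma adjusted p = 0.372) and -0.11 (limma adjusted p = 0.723), so that array carried a large share of the difference.

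Cpb2, a carboxypeptidase that slows clot lysis, read 6.06, 6.13 and 6.10 in ST vehicle, 5.89, 5.97, 5.94, 5.87 and 5.95 on HFHS, and 6.25, 5.88, 5.78, 5.49 and 5.70 with pollutants. The HFHS arrays were tightly grouped below ST vehicle, whereas pollutant replicate 1 was the highest array of all. The log2 fold changes were -0.17 ± 0.13 on HFHS (limma adjusted p = 0.740) and -0.28 ± 0.13 with pollutants (limma adjusted p = 0.435), and -0.17 and -0.28 without ST vehicle replicate 3. Plasminogen (Plg) differed by -0.14 ± 0.09 and -0.02 ± 0.09.

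Among the anticoagulants, Serpind1 (heparin cofactor II, a thrombin inhibitor) read 6.37, 6.56 and 6.30 in ST vehicle, 6.25, 6.17, 6.25, 6.39 and 6.17 on HFHS, and 6.25, 6.15, 6.28, 6.20 and 6.17 with pollutants. The pollutant arrays lay below all ST vehicle arrays, the nearest pair being 6.28 and 6.30. The log2 fold changes were -0.16 ± 0.08 on HFHS (limma adjusted p = 0.460) and -0.20 ± 0.08 with pollutants (limma adjusted p = 0.335), and -0.22 and -0.26 without ST vehicle replicate 3. Antithrombin (Serpinc1) differed by -0.12 ± 0.14 and -0.08 ± 0.14 and protein C (Proc) by -0.04 ± 0.08 and 0.00 ± 0.08. Protein S (Pros1), the cofactor of protein C, differed by -0.02 ± 0.13 and 0.19 ± 0.13.

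In the classical and lectin pathways of complement 0 of 6 genes passed the test, and Masp2 had the smallest p against ST vehicle. Masp2, the lectin pathway protease that cleaves C4 and C2, read 4.15, 4.46 and 4.29 in ST vehicle, 4.17, 4.25, 4.22, 4.22 and 4.10 on HFHS, and 4.13, 4.02, 4.05, 4.06 and 3.91 with pollutants. The pollutant arrays lay below ST vehicle, but on slide 1 the gap was -0.02, against -0.44 and -0.38 on slides 2 and 5. Its log2 fold change was -0.27 ± 0.08 with pollutants, the member with the smallest p there (limma adjusted p = 0.183), and -0.11 ± 0.08 on HFHS. With pollutants it was also -0.27 without ST vehicle replicate 3 (limma adjusted p = 0.395). The other two Masp2 probes gave -0.23 ± 0.08 and 0.05 ± 0.09 with pollutants.

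Mbl1 and Mbl2 encode the mannose-binding lectins that recognise microbial sugars. Mbl1 read 3.60 to 3.73 in ST vehicle, 3.58 to 3.78 on HFHS and 3.16 to 3.90 with pollutants, where replicate 1 was the 3.90 and the other 4 arrays reached at most 3.39. Its log2 fold change with pollutants was -0.28 ± 0.15 (limma adjusted p = 0.484), and 0.32 ± 0.13 for HFHS against pollutants (limma adjusted p = 0.196). Without pollutant replicate 1 the latter was 0.45 and passed the test (limma adjusted p = 0.0169). Mbl2 differed from ST vehicle by -0.06 ± 0.10 on HFHS and -0.14 ± 0.10 with pollutants, and Masp1, a second lectin pathway protease, by -0.06 ± 0.11 and -0.09 ± 0.11. Other Masp1 probes gave 0.00 ± 0.15 and 0.11 ± 0.13 on HFHS, and -0.24 ± 0.15 and -0.20 ± 0.13 with pollutants. Between HFHS and pollutants they gave 0.24 ± 0.13 and 0.31 ± 0.11, where the probe used gave 0.03 ± 0.09. C2 and C4b, which form the convertase that cleaves C3, differed by 0.03 ± 0.16 and 0.10 ± 0.11 on HFHS and by 0.16 ± 0.16 and 0.08 ± 0.11 with pollutants.

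C3, on which all complement pathways converge, read 8.70 to 9.07 in ST vehicle, 8.48 to 9.01 on HFHS and 8.71 to 8.98 with pollutants. Its groups overlapped, with log2 fold changes of -0.15 ± 0.14 and -0.03 ± 0.14. Cfb, the protease of the alternative pathway convertase, differed by 0.00 ± 0.10 on HFHS and -0.04 ± 0.10 with pollutants. The complement inhibitors gave similarly small values, with Cfi (factor I) at -0.09 ± 0.09 and -0.04 ± 0.09, Serping1 (the C1 inhibitor) at -0.11 ± 0.10 and 0.02 ± 0.10, and C4bp (the C4b-binding protein) at 0.01 ± 0.17 and -0.22 ± 0.17.

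Cfd, or adipsin, is a protease that activates Cfb and is best known as a product of fat cells. It was by far the most variable member, with an SD within groups of 1.57, at percentile 99.7 of all genes. It read 0.57, 0.57 and -2.25 in ST vehicle, -2.27, -3.50, -0.85, -1.90 and -1.84 on HFHS, and -0.68, 1.71, -3.31, -0.51 and -2.66 with pollutants. Each group spanned several log2 units, and the groups overlapped. Cfd differed by -1.70 ± 1.04 on HFHS (limma adjusted p = 0.610) and -0.72 ± 1.04 with pollutants (limma adjusted p = 0.897). Leaving out ST vehicle replicate 3 gave -2.64 (limma adjusted p = 0.458) and -1.66 (limma adjusted p = 0.675).

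Kupffer cell markers, whose cells also make complement, had list means of 2.14 to 2.95 over the 13 arrays. The adipocyte markers varied along with Cfd. The mean of 10 other adipocyte markers, among them Retn and Plin1, was highest on pollutant replicate 2 (0.20), the array with the highest Cfd, and lay between -2.06 and -1.04 on the other arrays. It ran from -1.72 to -1.41 on HFHS and from -1.77 to -1.04 in ST vehicle. The defining marker Adipoq was above background on 9 of 13 arrays and was not tested. Whether fat cells in the samples account for the spread of Cfd was not tested.

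**Figure D3:**
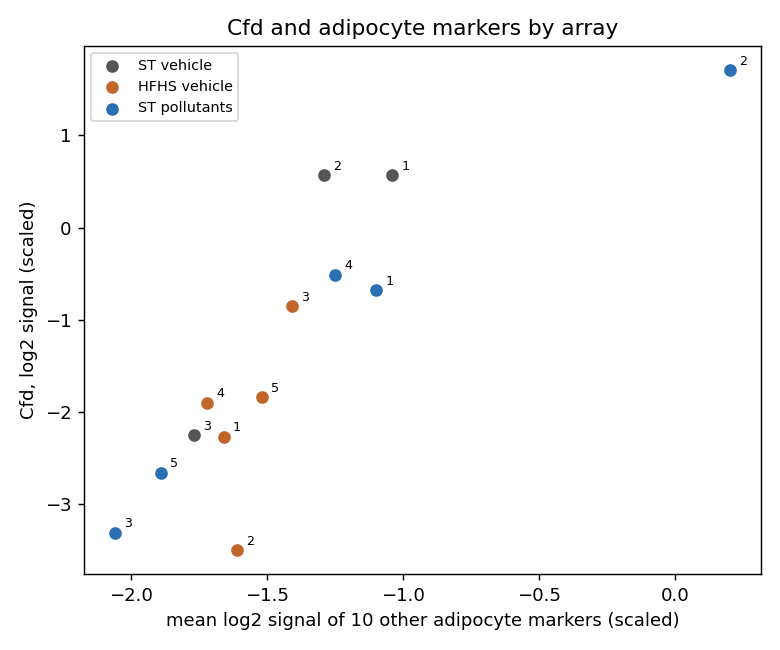
Cfd log2 signal against the mean log2 signal of 10 other adipocyte markers, 1 point per array, coloured by group with the replicate number beside it. Pollutant replicate 2 is highest on both axes, at 0.20 and 1.71, and pollutant replicate 3 is lowest on the horizontal axis, at -2.06.

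The terminal complement genes encode the proteins that assemble into the membrane attack complex, which begins with C5 (Hc) and is joined by C6, C8 and C9. Several were spread widely within groups, with SDs of 0.59 for C8b, 0.58 for C8a, 0.54 for C9 and 0.42 for C6, and their values are given in full after they were seen. C8a, the alpha chain of C8, read 2.75, 3.05 and 4.01 in ST vehicle, 3.16, 2.77, 3.23, 3.14 and 2.72 on HFHS, and 4.43, 3.50, 2.80, 2.61 and 2.74 with pollutants. C8b, the beta chain, read 2.95, 3.33 and 4.22, then 3.30, 2.47, 3.07, 2.88 and 2.48, and then 4.07, 3.44, 2.54, 2.52 and 2.47 in the same order. Both genes were highest on ST vehicle replicate 3 and pollutant replicate 1, well above the other 11 arrays, which reached at most 3.50 for C8a and 3.44 for C8b.

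C6 and C9 placed these 2 arrays on top as well. C6 read 0.71 and -0.01 there, against -0.87 to -0.25 on the other 11 arrays. C9, which forms the pore, read 1.38 and 1.75, against -0.09 to 1.18. These are the same arrays on which the male-biased genes were highest, and no member is on that list of 16 genes. The part of this in the spread of the terminal genes was not tested.

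None of the terminal genes passed the test, and the sign of several hung on 1 array. On HFHS the log2 fold changes were -0.66 ± 0.39 for C8b, -0.27 ± 0.39 for C8a, -0.37 ± 0.28 for C6, -0.07 ± 0.37 for C9 and -0.10 ± 0.14 for Hc. Without ST vehicle replicate 3 they were -0.30 for C8b, 0.10 for C8a, 0.08 for C6 and 0.17 for C9. With pollutants the values were -0.49 ± 0.39 for C8b, -0.06 ± 0.39 for C8a, -0.23 ± 0.28 for C6, -0.31 ± 0.37 for C9 and -0.03 ± 0.14 for Hc. Without ST vehicle replicate 3 they were -0.13 for C8b, 0.31 for C8a, 0.22 for C6 and -0.07 for C9.

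C8g, the small gamma chain, did not share this pattern. It read 7.16, 7.36 and 7.23 in ST vehicle, 7.04, 7.06, 6.96, 7.27 and 7.44 on HFHS, and 7.17, 6.99, 6.97, 6.84 and 6.92 with pollutants. Of the pollutant arrays only replicate 1 reached the ST vehicle range, and the highest array was HFHS replicate 5. The log2 fold change was -0.27 ± 0.12 with pollutants (limma adjusted p = 0.355), and a second probe gave -0.28 ± 0.12. It was also -0.28 without ST vehicle replicate 3 (limma adjusted p = 0.542). Between HFHS and pollutants C8g differed by 0.18 ± 0.10 (limma adjusted p = 0.397), and by 0.32 under quantile normalization, where it passed the test (limma adjusted p = 0.0352).

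Across the 13 arrays C8a and C8b correlated at r = 0.93 and rho = 0.85 (permutation test, adjusted p = 0.00024 and 0.00336 over the same 6 pairs as the fibrinogen chains). The relation held at r = 0.85 without ST vehicle replicate 3 and pollutant replicate 1, at 0.96 without slide 1 and at 0.97 with group and slide means removed. The 2 C8a probes correlated at 0.98. C8a also correlated with members that are not C8 chains, without a test of these pairs. Its r was 0.84 with Hc, 0.82 with Serping1, 0.77 with Cfi, 0.73 with C6 and 0.71 with C9. With the remaining members it ran from 0.64 (Cpb2) down to -0.19 (F5). C8g correlated with C8a at r = 0.18 and rho = 0.19 and with C8b at r = 0.25 and rho = 0.27 (permutation test, adjusted p = 0.548, 0.526, 0.484 and 0.435).

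C8a and C8b are neighbours on chromosome 4, 11130 bases apart with no protein-coding gene between them, while C8g lies on chromosome 2. The 150 bases before each start are shown for this neighbouring pair, from RefSeq GRCm38.p6 at chr4:104876399-104876548 (minus strand) and chr4:104766167-104766316 (plus strand), with the same motifs in capitals.
C8a: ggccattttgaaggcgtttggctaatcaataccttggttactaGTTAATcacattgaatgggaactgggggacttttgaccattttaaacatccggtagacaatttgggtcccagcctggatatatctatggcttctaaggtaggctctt
C8b: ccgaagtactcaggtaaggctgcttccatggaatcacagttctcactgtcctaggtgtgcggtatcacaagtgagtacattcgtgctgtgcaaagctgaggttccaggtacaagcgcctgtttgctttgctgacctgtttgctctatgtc
C8a held the short HNF1 motif in this stretch. In C8b the motif was found farther from the start, at 206 to 201 bases before it, outside the stretch shown.

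**Figure D4:**
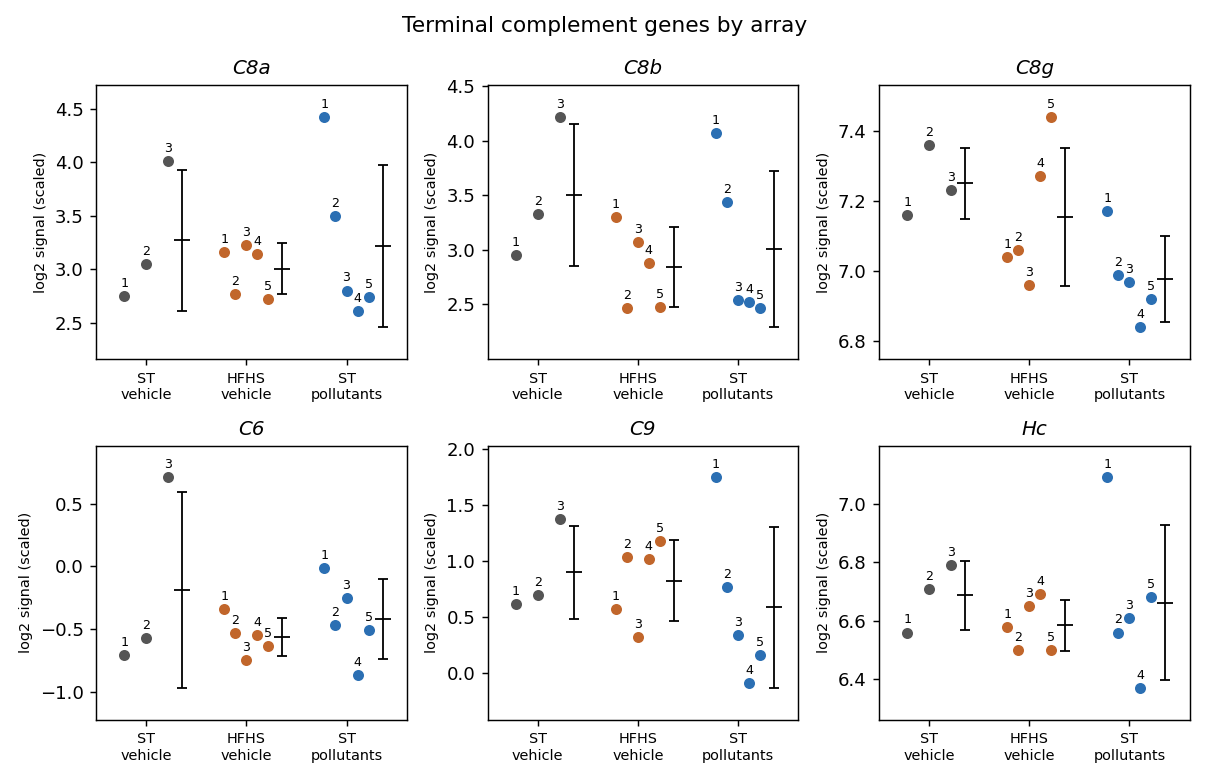
Log2 signal of the 6 terminal complement genes on each array, with the replicate number beside each point and the mean ± SD of the group to its right; each panel has its own scale. ST vehicle replicate 3 and pollutant replicate 1 are the 2 highest arrays for C8a, C8b, C6, C9 and Hc but not for C8g.

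Between HFHS and pollutants, which share no arrays, the 6 members under an unadjusted p of 0.05 were lower on HFHS for Fgb, Fga, F5 and Kng1 and higher for Mbl1 and Masp2. Fgb had the smallest p, with a log2 fold change of -0.31 ± 0.10 (limma adjusted p = 0.112). Its slide differences were -0.48, -0.34, -0.46, 0.00 and -0.26, so it was lower on 4 of 5 slides. The value was -0.24 ± 0.09 for F5 (limma adjusted p = 0.149) and 0.16 ± 0.07 for Masp2 (limma adjusted p = 0.263). The second probe of F5 gave -0.12 ± 0.09.

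Pollutant replicate 1 had the highest signal of the 13 arrays for 15 of the 38 members, among them C2, C4b, Hc, Cfb, Cfi, C4bp, F7, Plg, Pros1 and Serping1. On that array 9.55% of all genes were at their highest. ST vehicle replicate 3 was highest for 8 of the 38 members (10.2% of all genes), among them C3, Fga, Fgb and Fgg. Pollutant replicate 4 was lowest for 12 of the 38 (8.86% of all genes) and HFHS replicate 2 for 8 of the 38 (6.97% of all genes).

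The acute phase genes peaked on pollutant replicate 1 too. The mean of 30 acute phase genes was 4.59 there against 3.69 to 4.05 on the other arrays, and 15 of the 30 were at their highest. Serum amyloid Saa1 read 7.14 there and 2.75 to 4.79 elsewhere, and Orm2 6.26 against 4.44 to 5.53. Without that array the pollutant comparison with ST vehicle still had no member called, and 13 members were lower and 1 higher at an unadjusted p under 0.05, where 12.6% of all genes were under it in either direction. The smallest adjusted p was then that of Mbl1, at 0.0565 in limma. The part of the acute phase genes in these values was not tested.

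**Figure D5:**
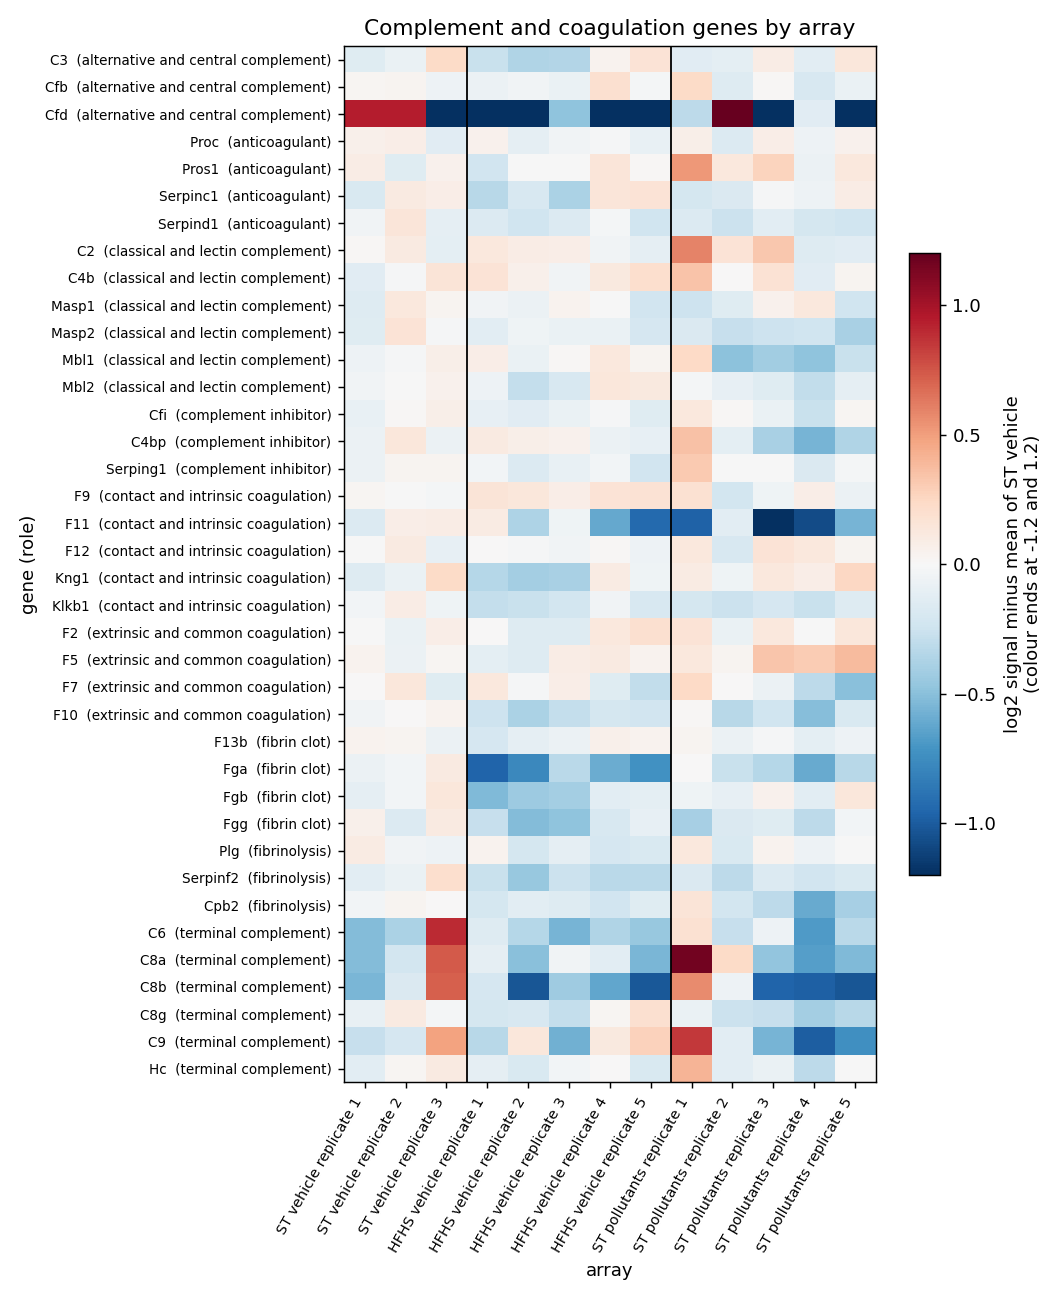
Log2 signal of the 38 genes on each array minus the mean of the 3 ST vehicle arrays, with red for higher and blue for lower and colours ending at 1.2 log2 units either way. Pollutant replicate 1 is red for C2, C4b, Mbl1, C4bp, Serping1, Pros1, C8a, C8b, C9 and Hc among others and blue for F11, Fgg and others, and the terminal genes C6, C8a, C8b and C9 are red on ST vehicle replicate 3.

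Of the other genes of both cascades few moved. Of 27 other coagulation and fibrinolysis genes tested, 0 passed the limma test in any comparison, and 0, 2 and 4 were under an unadjusted p of 0.05 on HFHS, with pollutants and between HFHS and pollutants. Of 32 other complement genes, 0 passed on HFHS (2 unadjusted), and 1 fell with pollutants, Cd59b, which encodes a surface inhibitor of the attack complex. Its signal was low, below the percentile subtracted from each array. It read -3.27 to -2.75 with pollutants and -2.53 to -2.03 on the other arrays. Cd59b had a log2 fold change of -0.65 ± 0.14 (limma adjusted p = 0.0470). It lost the call without ST vehicle replicate 3 (limma adjusted p = 0.211), and of 26 alternatives it was called in 3. In the authors' table the log2 fold change was smaller, at -0.36, and was not called (limma adjusted p = 0.0791). Between HFHS and pollutants Cd59b was higher on HFHS by 0.77 ± 0.12 (limma adjusted p = 0.00587). In the authors' table this was 0.43 and kept the call (limma adjusted p = 0.00719). Itgam, a chain of complement receptor 3, was also higher on HFHS than with pollutants, by 1.07 ± 0.17 (limma adjusted p = 0.00672). With the mean of all kept probes Itgam differed by 0.45 and lost the call (limma adjusted p = 0.159), as it did under normexp (limma adjusted p = 0.0605).

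Of 22 regulators of these genes in liver, Il6ra rose with pollutants. Il6ra, the receptor chain for interleukin-6, which drives fibrinogen output in the acute phase, read 3.50, 3.46 and 3.27 in ST vehicle, 3.22, 3.24, 3.65, 3.56 and 3.25 on HFHS, and 4.04, 4.24, 4.00, 4.26 and 4.17 with pollutants. The pollutant arrays lay above all others. The log2 fold change was 0.73 ± 0.12 against ST vehicle (limma adjusted p = 0.0198), and 0.66 without ST vehicle replicate 3, where the call was lost (limma adjusted p = 0.0917). The call was also lost with the slide as a block (0.66, limma adjusted p = 0.0801), with the replicate number as a block (0.70, limma adjusted p = 0.101), under normexp (limma adjusted p = 0.0954) and with the array median subtracted (limma adjusted p = 0.0744), and it was kept in 17 of 26 alternatives. HFHS lay below pollutants by -0.76 ± 0.10 (limma adjusted p = 0.00587).

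Foxa3, a forkhead factor of liver, fell on HFHS against pollutants by -0.76 ± 0.18 (limma adjusted p = 0.0346), a call made in 10 of 26 alternatives and lost with the slide block (limma adjusted p = 0.0629), the replicate block (0.0738), normexp (0.0619) and the array median (0.0807). It differed from ST vehicle on HFHS by -0.99 ± 0.20 (limma adjusted p = 0.0517). Of the 30 acute phase genes 0 passed the limma test against ST vehicle on HFHS or with pollutants (5 and 6 unadjusted), and Il1r1 was lower on HFHS than with pollutants by -0.62 ± 0.15 (limma adjusted p = 0.0445). That call was made in 7 of 26 alternatives and lost with the replicate block (limma adjusted p = 0.0573), normexp (0.106) and the array median (0.116). Of the 16 male-biased genes 0 passed against ST vehicle in either comparison (2 and 2 unadjusted), and Cyp2u1 was lower on HFHS than with pollutants by -0.81 ± 0.14 (limma adjusted p = 0.00876). With the mean of all kept probes it was -0.40 and lost the call (limma adjusted p = 0.123).

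Of the markers of other cells, 0 genes passed against ST vehicle in either comparison. On HFHS the 8 skeletal muscle markers had a median log2 fold change of -2.17 (0 unadjusted), the 9 cholangiocyte markers -0.50 (1 unadjusted), the 7 erythroid markers 0.28 (1 unadjusted) and the 13 acinar markers were all above 0 (11 unadjusted). With pollutants the medians were 0.51 for muscle (0 unadjusted), 0.00 for cholangiocytes (1 unadjusted), 0.50 for erythroid cells (4 unadjusted) and 0.03 for acinar cells (0 unadjusted). The muscle list mean varied widely between arrays within each group. It ran from -4.63 to 0.35 on HFHS, -3.13 to 0.03 in ST vehicle and -2.59 to 0.52 with pollutants. The medians of the Kupffer cell, endothelial, stellate cell, neutrophil, T cell, B cell and platelet lists lay between -0.20 and 0.17 in both comparisons, and those of the adipocyte list were -0.26 and 0.04. For HFHS against pollutants the acinar median was 4.62 (13 of 13 unadjusted, 0 called) and the muscle median -2.65 (6 of 8 unadjusted, 0 called). The calls there were Pck1 of the hepatocyte list, lower, and Car3 of the adipocyte list, higher. The part of these cells in the values of the 38 genes was not tested.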

How the data were processed

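Scanner files deposited by the authors give the intensity of each spot from Agilent Feature Extraction 11.5.1.1, per the submitters' processing notes. The authors also deposited a table of 26082 probes on a log2 scale, as read from its values; limma is named in the submitters' processing notes. It was used only as an alternative, and each of its 13 columns matched its own array best.

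The processed signal of 39429 probes was log2-transformed and averaged over spots, with control spots left out and outlier spots set to missing, and the 75th percentile of each array was subtracted. A probe was kept if, in 1 or more groups, each array had it well above background (25030 probes). The probe of highest mean was used for each gene name (19534 genes). All 51 probes of the 38 genes passed this filter, and no value used for the 38 genes was missing or saturated. limma 3.58.1 in R 4.3.3 fitted 1 model with 3 groups to the 13 arrays, two-sided, and slides were read from the array barcodes. Adjusted p-values come from that model over all genes unless named otherwise, and errors of fold changes are its standard errors. The script was tested on simulated data. Correlations across arrays used 1e+05 permutations.

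The members, lists, tests and alternatives were chosen with earlier results of these data known. Values by array are given for the members with the 6 smallest p against ST vehicle in either comparison and for those whose groups did not overlap there. Others given by array were chosen after their values were seen. Other genes were read in 5 lists by pathway or role and in 13 lists of markers for hepatocytes and other cells. Probe positions are mm9 as in the files, and promoters are RefSeq GRCm38.p6. Alternatives were the background correction, the scaling, the probe filter, the probes per gene, blocks for slide or replicate number, the authors' table, the groups fitted and arrays left out.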

Additional observations from a re-analysis of the deposited data

Results flagged for a closer look

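Of the 76 groups of 5 arrays examined (38 genes in HFHS vehicle and in ST pollutants), 1 held an array far from the rest. Cfb in HFHS vehicle replicate 4 read 6.97, with the next array at 6.75 and the lowest at 6.70, so that the gap made up 0.80 of the range against a critical value of 0.71. Chance gives about 1 such array in 20 groups.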

How the results depend on the processing

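No member was called in the fit as reported, and 26 alternatives were run. Of 2964 fold changes under the alternatives, 2887 moved by less than the spread between arrays, 73 moved by more without a call and 4 became calls. Many of the 2964 could not move, so the share that stayed says little. The probe filters and the choice of groups fitted left them unchanged, as did leaving out an array for the comparison without its group. Of 114 fold changes in each setting, 32 moved by more under normexp, 14 under quantile normalization and 13 in the authors' table. Quantile normalization called 1 member higher for HFHS vehicle against ST pollutants, C8g, where 341 of 19534 genes were called higher. Leaving out 1 array at a time gave 0 to 1 member called lower for HFHS vehicle against ST vehicle. This was Fga, without HFHS vehicle replicate 3, where 76 of 19534 genes were called lower. For HFHS vehicle against ST pollutants it gave 0 to 1 called higher. This was Mbl1, without ST pollutants replicate 1, where 214 of 19534 genes were called higher. Leaving out ST vehicle replicate 3 and ST pollutants replicate 1 together, an alternative chosen after seeing the data, also called 1 member higher in that comparison, Mbl1 (0.45, limma adjusted p = 0.0203). In that fit 193 of 19534 genes were called higher. The cause of these changes was not tested.

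The subunit correlation was r = 0.62 for Fga and Fgg under normexp, which passed the test for r but not for rho (0.51, permutation adjusted p = 0.122), and 0.19 for Fgb and Fgg under quantile normalization, which did not. It was 0.57 for Fga and Fgb without slide 1, and 0.45 and 0.39 for Fga with Fgb and Fgb with Fgg with group and slide means removed, none of which passed. For Fga and Fgb the permutation test of rho was lost under quantile normalization (adjusted p = 0.0983) and with the array median subtracted (adjusted p = 0.0832), and for Fgb and Fgg with the array median subtracted (adjusted p = 0.0534). The cause was not tested.

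With the replicate number as a block, 0 members were called, and the smallest adjusted p in limma was 0.157 (Fgb, HFHS against ST vehicle), 0.316 (Klkb1, pollutants against ST vehicle) and 0.0861 (F5, HFHS against pollutants). Deviations from the group means correlated at -0.17 to 0.56 for arrays that share a number. Of these, arrays on the same slide correlated at -0.03 to 0.56, and those on different slides at -0.17 and -0.15. For all arrays of different groups and slides the range was -0.40 to 0.27. Numbers largely coincided with slides, so the ranges do not decide on pairing. The numbers were not taken as pairing, and the main fit held neither block. With the slide as a block the smallest were 0.156, 0.221 and 0.0675. Without slide 1 only 1, 3 and 1 of all genes were called, so a count of 0 members says little there. Over all genes, calls higher and lower were 46 and 88 on HFHS, 105 and 85 with pollutants, and 307 and 449 between HFHS and pollutants as reported. They were 15 and 30, 13 and 9, and 87 and 205 under normexp, 23 and 45, 25 and 23, and 120 and 203 with the array median subtracted, 17 and 38, 38 and 32, and 129 and 232 without the probe filter, and 19 and 34, 22 and 22, and 215 and 348 with the replicate block.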
